A study of Mus musculus with 9 samples.

Results

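The miR-34 family and miR-210 are microRNAs (miRNAs), short RNAs that silence messenger RNAs, and are known from stress responses, and their levels were measured in mouse liver after an overdose of acetaminophen (APAP). Each miRNA hairpin yields a 5p and a 3p strand, and both strands of miR-34a, miR-34b, miR-34c and miR-210 were looked up by name. Of the 8 names, 7 were found among the 946 mature miRNAs counted, and miR-34b-5p was not analysed here. The 7 comprised mmu-miR-34a-5p, mmu-miR-34a-3p, mmu-miR-34b-3p, mmu-miR-34c-5p, mmu-miR-34c-3p, mmu-miR-210-3p and mmu-miR-210-5p, written below without the mouse prefix.

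Small RNA was sequenced in 9 libraries made from livers of wild-type C57 BL6 mice aged 8 weeks, in 3 groups of 3. The dmPGE2+APAP group received 300 µg/kg of dmPGE2, a methylated analog of prostaglandin E2, by the peritoneal route 1 h before 500 mg/kg APAP. The APAP group received 500 mg/kg APAP alone, and the Control group received saline. The Control libraries were identified by elimination, since their column names match no label. Livers were taken 6 h after APAP, no group had dmPGE2 alone, and no vehicle for dmPGE2 is named. Whether the libraries come from different animals is not stated, and p-values therefore reflect only how these libraries vary, which may be technical.

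As background, the transcription factor p53 activates the genes of the miR-34 family, and miR-34 strands repress messages that drive the cell cycle and survival. Mir34a is transcribed on its own, whereas Mir34b and Mir34c come from one shared transcript that is abundant in multiciliated epithelium. miR-210 is induced by hypoxia-inducible factors and represses messages of mitochondrial respiration. APAP overdose injures hepatocytes around the central veins through a reactive metabolite that damages mitochondria, a setting in which both DNA damage and low oxygen signals have been studied.

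A miRNA recognises its targets mainly through its seed, bases 2 to 8, so the mature sequences are shown with the seed in capitals (5′ to 3′, RefSeq, GRCm38.p6). They show which members can read the same target sites.
miR-34a-5p: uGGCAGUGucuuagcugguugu
miR-34b-5p: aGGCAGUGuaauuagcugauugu
miR-449a-5p: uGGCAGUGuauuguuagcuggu
miR-34a-3p: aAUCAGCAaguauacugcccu
miR-34b-3p: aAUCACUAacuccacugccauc
miR-34c-3p: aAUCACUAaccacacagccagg
miR-210-3p: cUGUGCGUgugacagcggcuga
miR-210-5p: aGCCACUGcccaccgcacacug

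A mature sequence was found in RefSeq for 7 of the 8 names, miR-34c-5p being the exception, and these carried 5 distinct seeds. miR-34a-5p and miR-34b-5p had one seed, and miR-34b-3p and miR-34c-3p had another. miR-449a-5p, which is known from multiciliated cells, was the only other counted miRNA among the 795 with a sequence whose seed matched a member. The seeds of miR-34a-5p and miR-210-3p differed at 6 positions. The 23 bases of miR-34b-5p matched the Mir34c hairpin at 21 bases in the closest ungapped window. How reads that fit both hairpins were assigned is not given in the sources used here, so the miR-34c-5p count is uncertain to that extent.

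The hairpins of miR-34a and miR-210 follow with both mature strands in capitals, because in both hairpins nearly all reads came from one of these strands.
Mir34a: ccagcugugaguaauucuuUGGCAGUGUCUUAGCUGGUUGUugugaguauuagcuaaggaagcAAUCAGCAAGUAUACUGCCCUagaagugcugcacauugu
Mir210: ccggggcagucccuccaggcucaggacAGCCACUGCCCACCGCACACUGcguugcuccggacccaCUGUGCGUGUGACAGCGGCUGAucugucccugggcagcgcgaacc

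Mir34a lies on the plus strand at chr4:150068454-150068555 (GRCm38.p6, 102 bases). It overlapped no other annotated gene, with the lncRNA Gm13067 9736 bases to its left and Gpr157 18947 bases to its right. Mir210 lies on the minus strand at chr7:141221384-141221493 and also overlapped no gene, Rassf7 being 2725 bases away. Mir34c (chr9:51103034-51103110) and Mir34b (chr9:51103562-51103645) lie 451 bases apart on the minus strand. Both fall inside the annotated spans of Hoatz and Btg4, and whether they are exonic or intronic there was not analysed here.

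Libraries held 1038799 to 6994952 reads in dmPGE2+APAP, 3523998 to 7563788 in APAP and 7590735 to 10483460 in Control, so every Control library was deeper than every other, and in comparisons with Control depth and treatment cannot be told apart. Levels are given as CPM, reads brought to a common library total, scaled by TMM, which assumes that most miRNAs keep their level. Some miRNAs had equal or nearly equal mean levels. Examples are miR-122-5p and miR-122b-3p, at 199127 and 199112 CPM, and miR-142a-3p and miR-142b, both at 16.3 CPM. Reads may therefore be counted under more than 1 name, which would enter library totals, CPM and shares of all miRNAs. This was not tested. A single read stood for 0.852 CPM in dmPGE2+APAP library 2, the shallowest, and for 0.0921 CPM in Control library 3, the deepest. The tissue label was checked with 5 hepatocyte miRNAs (miR-122-5p, miR-122-3p, miR-192-5p, miR-194-5p and miR-802-5p), whose summed level was 277382 to 288056 CPM in dmPGE2+APAP, 241603 to 278675 in APAP and 256825 to 417737 in Control. In bulk liver, fewer cells of a type and less RNA per cell cannot be told apart.

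The miR-34 and miR-210 strands were scarce in these livers. Of the 7 members, 3 passed the abundance filter, namely miR-34a-5p with 551 reads over all libraries, miR-34c-5p with 389 and miR-210-3p with 313. By mean level they ranked 212, 236 and 255 of the 360 miRNAs tested, at 9.55, 7.20 and 5.20 CPM. None of these 3 differed between any of the groups past the threshold (an adjusted p under 0.05 in edgeR's quasi-likelihood fit, with the Benjamini-Hochberg method applied over all 360). The plot of levels by library shows each value with its counting error.

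**Figure D1:**
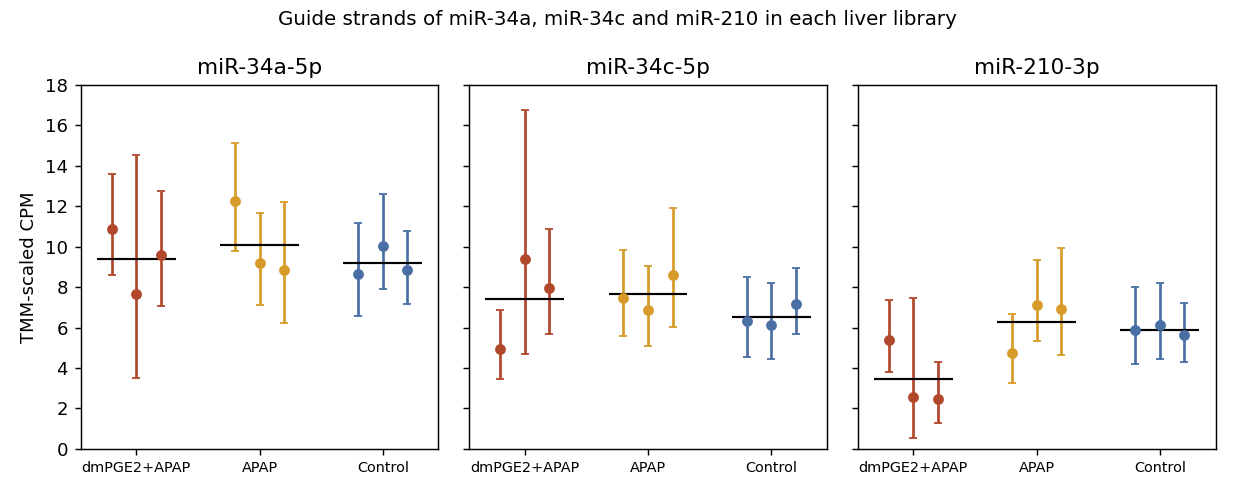
TMM-scaled CPM of miR-34a-5p, miR-34c-5p and miR-210-3p in the 3 libraries of each group. Points are libraries, bars are exact 95% Poisson intervals of the read count (counting error only) and black lines are group means. miR-34a-5p lies between 7.67 and 12.2 CPM in all groups, and 2 dmPGE2+APAP libraries hold the lowest miR-210-3p values, at 2.45 and 2.56 CPM.

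miR-34a-5p, the main p53-activated strand of the family, had TMM-scaled group means between 9.18 and 10.1 CPM. It had 10.9, 7.67 and 9.61 CPM in dmPGE2+APAP libraries (77, 9 and 47 reads), 12.2, 9.18 and 8.85 CPM in APAP (85, 67 and 37 reads), and 8.66, 10.1 and 8.84 CPM in Control (59, 74 and 96 reads). Each pair of groups overlapped, as did those of the members described next in APAP against Control and in dmPGE2+APAP against APAP, where 16.7% and 13.9% of all 360 miRNAs had groups that did not overlap. One APAP library stood above the rest. The shallow library's 9 reads carried an exact 95% Poisson interval of 4.12 to 17.1 reads, or 3.51 to 14.6 CPM, which covers every other library's value. Such intervals cover counting error only, since PCR copies are not independent molecules.

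The group means of miR-34a-5p were 9.39 ± 1.62 CPM in dmPGE2+APAP, 10.1 ± 1.87 in APAP and 9.18 ± 0.759 in Control (SD, n = 3 each). The spread between APAP libraries, 18.5% of the mean, was little above the 13.4% that counting alone would give, and in Control the 8.27% lay below the 11.7% from counting.

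After APAP, miR-34a-5p had a log2 fold change of 0.14 (SE 0.28) over Control, at an edgeR adjusted p of 0.895. The 95% interval reached from 0.734-fold to 1.65-fold. With scaling to library totals in place of TMM the log2 value was 0.39 (SE 0.30, edgeR adjusted p 0.663) and the interval 0.846-fold to 2.03-fold, so whether a doubling lay inside it depended on the scaling. With dmPGE2 before APAP the log2 value was -0.07 (SE 0.29) against APAP alone, with an edgeR adjusted p of 0.989 and an interval of 0.625-fold to 1.46-fold. dmPGE2+APAP against Control gave 0.07 (SE 0.29), an edgeR adjusted p of 0.917 and 0.692-fold to 1.60-fold.

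miR-34c-5p, from the Mir34b and Mir34c transcript, was the second most abundant member. It had 4.95, 9.37 and 7.97 CPM in dmPGE2+APAP (35, 11 and 39 reads), 7.49, 6.85 and 8.61 CPM in APAP (52, 50 and 36 reads), and 6.31, 6.11 and 7.18 CPM in Control (43, 45 and 78 reads). The dmPGE2+APAP libraries held both the lowest and the highest of these values, and each pair of groups overlapped. Means were 7.43 ± 2.26, 7.65 ± 0.891 and 6.54 ± 0.570 CPM in dmPGE2+APAP, APAP and Control (SD, n = 3 each).

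Against Control, miR-34c-5p had a log2 value of 0.22 (SE 0.30) in APAP, with an edgeR adjusted p of 0.848 and a 95% interval of 0.745-fold to 1.81-fold. In dmPGE2+APAP it stood at -0.11 (SE 0.32) against APAP, with an edgeR adjusted p of 0.963 and an interval of 0.576-fold to 1.48-fold. Against Control the dmPGE2+APAP value was 0.10 (SE 0.32), with an edgeR adjusted p of 0.894 and 0.670-fold to 1.72-fold. With TMM, all intervals of both miR-34 strands lay inside a 2-fold change in either direction. With library totals, the miR-34c-5p value in APAP against Control was 0.46 (SE 0.35, edgeR adjusted p 0.663), and its interval reached 2.31-fold there and 2.17-fold in dmPGE2+APAP against Control.

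miR-210-3p, the hypoxia-induced strand, had its lowest values in livers given dmPGE2 before APAP, but the difference did not pass. It had 5.37, 2.56 and 2.45 CPM in dmPGE2+APAP (38, 3 and 12 reads), 4.75, 7.12 and 6.93 CPM in APAP (33, 52 and 29 reads), and 5.87, 6.11 and 5.62 CPM in Control (40, 45 and 61 reads). In dmPGE2+APAP, library 1 stood above APAP library 1, so those groups overlapped. The 3 reads of dmPGE2+APAP library 2 allow 0.527 to 7.47 CPM (exact 95% Poisson interval), which reaches past all Control values, whereas the 12 reads of library 3 allow 1.27 to 4.29 CPM, below every APAP and Control value.

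Group means of miR-210-3p were 3.46 ± 1.66 CPM in dmPGE2+APAP, 6.27 ± 1.32 in APAP and 5.87 ± 0.248 in Control (SD, n = 3 each). The dmPGE2+APAP spread was 47.9% of the mean, against 38.4% from counting alone, and the APAP spread was 21.0% against 16.7%. In Control it was only 4.22%, below the 14.6% from counting, so these 3 libraries lay closer together than counting alone would give.

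dmPGE2+APAP against APAP gave miR-210-3p a log2 fold change of -0.73 (SE 0.37), with edgeR's p at 0.0663 before adjustment and 0.703 after it. Its 95% interval ran from 0.348-fold to 1.04-fold, so both no change and a halving or more lay inside it. By unadjusted p it ranked 33 of 360. The value was -1.32 without dmPGE2+APAP library 1 (edgeR adjusted p 0.177) and -0.44 without dmPGE2+APAP library 3 (0.983). Limma on the log2 of CPM without TMM scaling gave -0.77 with a pseudocount of 1 and -0.92 with 0.1 (adjusted p 0.625 and 0.66).

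dmPGE2+APAP against Control gave -0.64 (SE 0.37), an edgeR adjusted p of 0.5004 and an interval of 0.373-fold to 1.10-fold. Here all dmPGE2+APAP values lay below all Control values on the TMM scale, as for 8.61% of the 360 miRNAs in this direction. On CPM without TMM scaling these groups overlapped. Without dmPGE2+APAP library 1 the log2 value was -1.21, and without library 3 it was -0.32. APAP against Control gave 0.09 (SE 0.34), an edgeR adjusted p of 0.9496 and an interval of 0.649-fold to 1.75-fold, and with library totals 0.34 (SE 0.35, edgeR adjusted p 0.748) and 0.751-fold to 2.13-fold.

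Red-cell and myeloid miRNAs, like miR-210-3p, had fitted values below 0 in dmPGE2+APAP against APAP. The lymphoid miR-150-5p and miR-342-3p stood at 0.32 (SE 0.67) and -0.03 (SE 0.38) there. Of the other cell-type marker lists, muscle had 3 of 4 miRNAs below 0 in this comparison (median log2 -0.43). The hepatocyte list and the mesenchymal and stellate list each had 4 of 5 above 0. Above 0 were also 5 of 5 in the cholangiocyte and epithelial list and 1 of 2 in the endothelial list. The summed level of 4 red-cell miRNAs (miR-451a, miR-144-3p, miR-144-5p and miR-486a-5p) was 352 to 379 CPM in dmPGE2+APAP, 731 to 1398 in APAP and 431 to 543 in Control, and 0 of the 4 were without reads in any group. In dmPGE2+APAP against APAP all 4 were below 0 with an unadjusted p under 0.05 (median log2 -1.30), and miR-451a, at -1.44 (SE 0.25, edgeR adjusted p 0.00993), was the 1 miRNA of all 360 that passed. In APAP against Control all 4 lay above 0 (median log2 1.07), where miR-210-3p stood at 0.09 (SE 0.34). Against Control, miR-144-3p and miR-486a-5p in dmPGE2+APAP stood at 0.01 (SE 0.60) and -0.01 (SE 0.29), with miR-451a at -0.47 (SE 0.24) and miR-144-5p at -0.48 (SE 0.36). Of the 4, 3 lay below 0 there (median log2 -0.24), and 0 passed. The sums of 4 myeloid miRNAs (both strands of miR-142a and of miR-223) overlapped between all groups, at 153 to 238 CPM in dmPGE2+APAP, 177 to 319 in APAP and 124 to 233 in Control, but most of the summed level came from miR-142a-5p, which averaged 173 CPM over all libraries. Fitted one by one, all 4 myeloid miRNAs lay below 0 in dmPGE2+APAP against APAP (median log2 -0.75) and above 0 in APAP against Control (median 0.59), and 0 passed in either. The lowest of them in dmPGE2+APAP against APAP was miR-223-3p, a neutrophil miRNA, at -0.93 (SE 0.32, edgeR adjusted p 0.326). The part of red-cell and myeloid RNA in the miR-210-3p values was not tested.

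**Figure D2:**
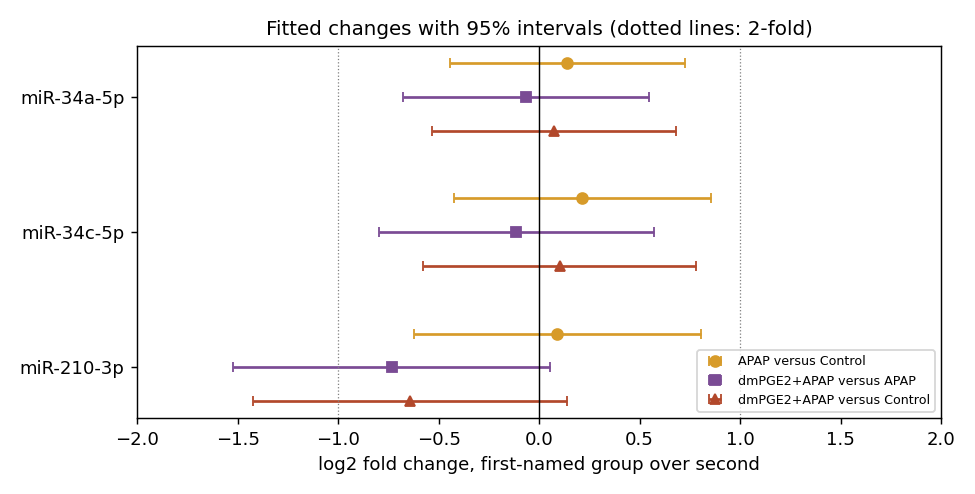
Log2 fold change (x axis) of the 3 tested members in the 3 comparisons, from the edgeR fit over all 9 libraries. Symbols are fitted values and bars 95% intervals. All 9 intervals cross 0, and miR-210-3p in dmPGE2+APAP, at -0.73 against APAP and -0.64 against Control, lies farthest from it.

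Read against all miRNAs, 0 of the 3 tested members passed in any comparison. The share of all 360 that passed in either direction was 0.833% for APAP against Control, 0.278% for dmPGE2+APAP against APAP and 0.278% for dmPGE2+APAP against Control. At an unadjusted p under 0.05 the members also numbered 0 in each, with edgeR, DESeq2 and limma-voom alike, where 9.72%, 6.39% and 10.6% of all miRNAs stood with edgeR. With limma on CPM without TMM scaling, 1 member, miR-210-3p, had an unadjusted p under 0.05 in dmPGE2+APAP against APAP. In edgeR with dmPGE2+APAP library 1 left out, 1 member reached this for dmPGE2+APAP against APAP and 1 for dmPGE2+APAP against Control. Leaving out APAP library 1 also gave 1 member in dmPGE2+APAP against APAP. In size of change, miR-34a-5p exceeded 29.4%, 14.7% and 13.1% of all miRNAs in these comparisons, and miR-210-3p exceeded 18.3%, 89.2% and 84.4%. The comparisons share groups, so they are not independent of each other.

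**Figure D3:**
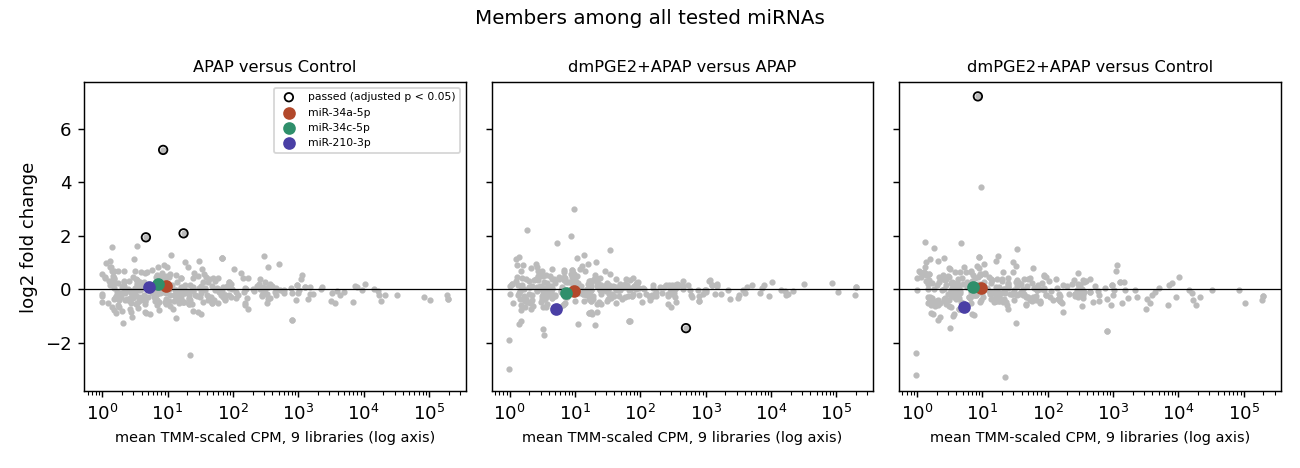
Log2 fold change (y axis) against mean TMM-scaled CPM (x axis, log scale) for the 360 tested miRNAs in each comparison. Coloured points are the members and open circles the miRNAs that passed. Both miR-34 members lie close to 0 in each panel, with miR-210-3p at -0.73 and -0.64 in the panels of dmPGE2+APAP.

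Levels of different mature miRNAs can be set side by side without a length term, since a read covers the whole strand, though ligation favours some sequences. Within a library, miR-34a-5p had more reads than miR-34c-5p everywhere except dmPGE2+APAP library 2, which had 9 against 11. Their ratio averaged 1.41 ± 0.713 in dmPGE2+APAP, 1.33 ± 0.303 in APAP and 1.42 ± 0.210 in Control (SD, n = 3 each). In Control and APAP the ranges of the miR-34a-5p and miR-34c-5p levels did not overlap, while in dmPGE2+APAP they did. miR-34c-5p and miR-210-3p, the neighbours below, overlapped or touched in every group.

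The ratio of miR-34a-5p to miR-210-3p reads does not depend on library scaling. It was 2.03, 3 and 3.92 in dmPGE2+APAP, 2.58, 1.29 and 1.28 in APAP, and 1.48, 1.64 and 1.57 in Control. All dmPGE2+APAP ratios exceeded all Control ratios, but they overlapped those of APAP. Those of dmPGE2+APAP libraries 2 and 3 rested on only 3 and 12 miR-210-3p reads. How often ratios of other miRNAs separate in this way was not computed. The ratio was computed after the members' values were seen, so it is given without a test.

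Reads that carry the GGCAGUG seed, taken as miR-34a-5p, miR-34c-5p (a known member of this seed family) and miR-449a-5p together, amounted to 17.2 ± 0.868 CPM in dmPGE2+APAP, 17.9 ± 2.001 in APAP and 15.8 ± 0.762 in Control (SD, n = 3 each). miR-34a-5p gave 54.8% ± 12.1, 56.1% ± 5.66 and 58.1% ± 2.998 of them. miR-449a-5p itself had 4 reads in dmPGE2+APAP, 3 in APAP and 2 in Control.

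The other 4 counted members lay below the filter and gave few reads. miR-34b-3p had 1, 1 and 0 reads in dmPGE2+APAP, 4, 0 and 1 in APAP, and 1, 1 and 0 in Control. Its depth-scaled ratio of APAP to Control was 3.93 with an exact 95% counting interval of 0.643 to 41.3, so no difference was detectable at this depth. Most of the APAP reads came from 1 library.

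miR-210-5p, the passenger strand of miR-210, had 2, 0 and 0 reads in dmPGE2+APAP, 1 in each APAP library, and 1, 1 and 0 in Control. The ratio of dmPGE2+APAP to APAP was 0.924 with a counting interval of 0.0772 to 8.06. miR-34a-3p had a single read, in APAP library 3, and miR-34c-3p had 3 reads, all in Control library 3. A count of 0 over a whole group allows up to 0.235 CPM in dmPGE2+APAP, 0.170 in APAP and 0.108 in Control (3 reads of the group's total, without TMM scaling).

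Strand choice was nearly complete in the 3 hairpins with both strands counted, Mir34a, Mir34c and Mir210. Over all libraries the minor strand held 0.181% of Mir34a reads (1 of 552, exact 95% binomial interval 0.00459% to 1.01%), 0.765% of Mir34c reads (0.158% to 2.22%) and 2.19% of Mir210 reads (0.884% to 4.45%). The share of the major strand of miR-210 was 98.3% ± 2.89 in dmPGE2+APAP, 97.3% ± 0.748 in APAP and 98.5% ± 1.34 in Control (SD, n = 3 each). Two-sided exact permutation tests of the major-strand share, 9 in all, gave p from 0.3 to 1 and an adjusted p of 1 each, where 3 against 3 libraries cannot go below 0.1. For Mir34a and Mir34c the outcome was fixed in advance, since minor-strand reads came from 1 library or none in each comparison. Those tests therefore cannot show whether strand choice changed.

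Other miRNAs of the p53 pathway are described from a list of 13, which holds both direct targets of p53 and miRNAs that p53 helps to process or that act on p53. All 13 were tested, and 0 passed in either direction in each comparison with edgeR, DESeq2 or limma-voom. For APAP against Control 6 lay above 0 and 7 below, with a median log2 of 0.00 beside -0.05 for all miRNAs, and 1, miR-145a-5p at -0.60 (SE 0.27), had an unadjusted p under 0.05. miR-192-5p and miR-194-5p, p53 targets that are abundant in liver, stood at -0.27 (SE 0.20) and -0.21 (SE 0.18), miR-143-3p at -0.21 (SE 0.24) and miR-29a-3p at 0.00 (SE 0.18).

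With dmPGE2 before APAP, 7 of the p53 list lay above 0 and 6 below against APAP, with a median of 0.01, and 0 had an unadjusted p under 0.05. Here miR-192-5p stood at 0.24 (SE 0.20), miR-194-5p at 0.10 (SE 0.18), miR-143-3p at 0.20 (SE 0.24) and miR-29a-3p at -0.03 (SE 0.18). Against Control 5 lay above 0 and 8 below, with a median of -0.03, which is also the median of all miRNAs, and the lowest edgeR adjusted p in the list was 0.336.

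Other hypoxia-responsive miRNAs were listed as 16, of which 15 were tested, and 0 passed in either direction in each comparison with edgeR or limma-voom. DESeq2 called 1, miR-23a-3p, in APAP against Control, where it called 12 of the 377 miRNAs it gave an adjusted p (3.18%). For APAP against Control 9 lay above 0 and 6 below (median log2 0.06), for dmPGE2+APAP against APAP 5 and 10 (median -0.14, beside 0.00 for all miRNAs), and for dmPGE2+APAP against Control 5 and 10 (median -0.02). At an unadjusted p under 0.05 in edgeR they numbered 2, 0 and 3 of 15, beside 9.72%, 6.39% and 10.6% of all 360 miRNAs. Named here after their values were seen, these were miR-23a-3p at 1.24 (SE 0.35, edgeR adjusted p 0.111) and miR-23b-3p at 0.84 (SE 0.27) in APAP against Control. In dmPGE2+APAP against Control they were miR-27a-3p at 0.90 (SE 0.30), miR-27b-3p at 0.48 (SE 0.22) and miR-107-3p at -0.49 (SE 0.20), the last of which is on both lists. Among the most abundant, miR-21a-5p, a broad injury-response miRNA, stood at -0.19 (SE 0.21) in APAP against Control and -0.21 (SE 0.21) in dmPGE2+APAP against APAP. The corresponding values were -0.22 (SE 0.19) and -0.07 (SE 0.19) for miR-26a-5p, 0.19 (SE 0.22) and 0.29 (SE 0.22) for miR-27b-3p, and 0.01 (SE 0.18) and -0.03 (SE 0.18) for miR-26b-5p.

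The miRNAs whose levels most resembled each main member were found by Pearson's r of log2 CPM over the 9 libraries, among 206 miRNAs with a mean of at least 10 CPM. For miR-34a-5p these were miR-98-5p (r = 0.93), miR-501-3p (0.86), miR-328-3p (0.77), miR-29a-3p (0.72) and miR-144-5p (0.70). For miR-210-3p they were miR-17-5p (0.74), miR-484 (0.73), miR-361-5p (0.72), miR-92a-3p (0.72) and let-7a-5p (0.71), and the rank correlations were lower there, at 0.33 to 0.53. miR-34a-5p and miR-34c-5p, which share their seed, had an r of -0.49, and miR-34a-5p and miR-210-3p one of 0.19. These are descriptions of 9 points that share depth, scaling and treatment groups, taken as the highest of many, and at such read counts counting error enters each of them.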

How the data were processed

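Mature miRNAs were counted in 9 mouse liver libraries. The deposited counts are whole reads per mature miRNA, per the file headers, and the deposited TPM values are the authors' reads rescaled to a common total, without correction for length (checked in 6 libraries). Bowtie and mm10 are named in the submitters' processing notes; versions, counting rules, annotation and strand handling were not given in the sources used here. Control columns carry a prefix found in no label. They were assigned by elimination, to the group only, and hold no replicate number. Their 3 TPM columns were left unused, so CPM was computed from the counts throughout.

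The test was edgeR 4.0.16 under R 4.3.3 (TMM, filterByExpr with minimum count 10 and minimum total 15, robust quasi-likelihood test, all 9 libraries in 1 fit of 3 group means). Adjusted p-values follow Benjamini and Hochberg over 360 miRNAs, threshold 0.05. SEs derive from the F statistic and 95% intervals from its degrees of freedom. Log2 CPM used a prior count of 2. DESeq2 1.42.0, limma 3.58.1 (voom, and log2 CPM without TMM plus a pseudocount of 1 or 0.1, chosen after seeing the data in place of deposited TPM), other scalings, filters and left-out libraries were alternatives. The edgeR script was tested on simulated data.

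Members and lists were chosen with earlier results of these data known. Every member was named; each list named its 4 most abundant miRNAs where none was called; the 5 closest miRNAs by Pearson's r were named for 2 members. miR-449a-5p, with 9 reads, came from a marker list. Sequences and coordinates are RefSeq's on GRCm38.p6, the build behind mm10.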

Additional observations from a re-analysis of the deposited data

How the results depend on the processing

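Over 18 alternatives the tested members gave 156 values, of which 0 passed the threshold (lowest adjusted p 0.177), 147 kept their direction and 9 reversed, at no more than 0.16 from 0 on the log2 scale. The deposited TPM was not run as an alternative, since its Control columns were not used, and CPM without TMM took its place. Requiring a mean of at least 10 CPM left no member to test. Without a filter miR-34a-5p and miR-34c-5p reversed to -0.0065 and -0.0037 in dmPGE2+APAP against Control. Leaving out 1 library gave, for APAP against Control, -0.0072 to 0.23 for miR-34a-5p, 0.14 to 0.31 for miR-34c-5p and -0.010 to 0.28 for miR-210-3p. For dmPGE2+APAP against APAP the ranges were -0.18 to 0.11, -0.22 to 0.16 and -1.32 to -0.44, and for dmPGE2+APAP against Control -0.027 to 0.23, 0.01 to 0.39 and -1.21 to -0.32. Scaling to library totals moved the median of all miRNAs by 0.25 for APAP against Control, where miR-34a-5p became 0.39 and miR-34c-5p 0.46, and by 0.22 for dmPGE2+APAP against Control.

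The number of all miRNAs that passed was 3 for APAP against Control, and 8 with library totals, 7 with RLE size factors, 9 without a filter, 0 at a mean of at least 10 CPM, 12 with DESeq2, 8 with log2 CPM without TMM at either pseudocount, 7 with only these 2 groups and 0 to 9 with a library left out. For dmPGE2+APAP against APAP it was 1, and 9 without a filter, 5 with DESeq2, 0 with only these 2 groups and 0 to 5 with a library left out. For dmPGE2+APAP against Control it was 1, and 2 with library totals, RLE size factors, no filter or log2 CPM without TMM plus 0.1, 0 with the 10 CPM minimum and 1 to 2 with a library left out. The cause of these shifts was not tested.

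Same-numbered dmPGE2+APAP and APAP libraries deviated together with r of 0.17, -0.10 and 0.12. The closest APAP library bore the same number for dmPGE2+APAP libraries 1 and 3, and number 3 for library 2. With 3 libraries in each group this cannot settle whether they are paired, and the main fit did not take the numbers as pairing. With the replicate number as a block in these 6 libraries, 0 miRNAs passed, and miR-34a-5p, miR-34c-5p and miR-210-3p had log2 values of -0.09, -0.13 and -0.77. Depth limits the members most in dmPGE2+APAP library 2, with 3 to 11 reads each.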
